A study of Mus musculus with 6 samples.

Results

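The 46 genes described here encode the machinery of mitosis and chromosome segregation. They were taken from a list of gene names, with no threshold on a measured value, and all 46 were found among the 16583 genes of the deposited table. The list was, however, chosen with earlier results of these data known. RNA had been sequenced from MC38, a mouse colorectal cancer cell line, in 3 control libraries (KOCtrl) and 3 libraries of cells in which SRC-1 had been knocked out (KOSRC-1). SRC-1 is a steroid receptor coactivator encoded by Ncoa1. The design text asks how SRC-1 raises PD-L1 and does not speak of mitosis. Controls and knockouts alike had spent 24 hours in interferon gamma (100 ng per mL), and untreated cells are not analysed here. Groups follow the sample titles. In the genotype field, the second knockout is written KOSRC-2 and the third KOSRC-3. The labels name neither clones nor separate cultures, so p-values measure the spread between these libraries, which may be technical.

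In mitosis the replicated chromosomes are condensed, attached to spindle microtubules through kinetochores, and pulled apart once the anaphase-promoting complex has marked securin and cyclin B for destruction. CDK1 with its cyclins, the Polo and Aurora kinases and the spindle checkpoint time these steps. Most of the genes are transcribed late in the cell cycle, when MuvB complexes with B-MYB and FOXM1 act at a promoter element named CHR (cell cycle genes homology region), often beside CCAAT boxes bound by NF-Y. In bulk RNA, a different share of cells in mitosis and a different amount of RNA per cell cannot be told apart.

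Libraries held 16329459 to 17207625 expected counts. Levels are CPM (expected counts scaled to library size, with edgeR's TMM factors), and a gene is called when its adjusted p in edgeR's quasi-likelihood test over 11656 genes was under 0.05. Knockout 2 stood apart from the other knockouts. Its log CPM correlated with theirs at 0.9776 and 0.9809, against 0.9956 between knockouts 1 and 3 and 0.9944 to 0.9952 among the controls. The targeted gene Ncoa1 measured 18.2, 18.5 and 18.05 CPM in the controls and 16.7, 10.1 and 16.1 CPM in the knockouts. The difference was not called (log2 fold change -0.35, SE 0.184, adjusted p = 0.179; 95% interval -0.78 to 0.08). Reads from the whole gene do not check the part altered in the knockout. Colorectal cancers arise from epithelium, yet 8 of the 9 epithelial markers in the table were under 1 CPM in every library, and Epcam, Krt18, Krt19 and Cdh1 were at or near 0. The 10 fibroblast and endothelial markers summed to 469 to 499 CPM in the controls and 177 to 212 CPM in the knockouts, mostly Dcn and Pdgfra, with Kdr at or near 0. They did not all go the same way. Of the 5 tested, 3 were called lower, beside 18.5% of all genes. The other 2 had positive log2 fold changes, 1 of them at an unadjusted p under 0.05 in edgeR, and were not called. The 8 leukocyte markers in the table summed to 10.6 to 12.6 CPM in the controls and 4.43 to 6.48 CPM in the knockouts, mostly Cd68, with Ptprc at 0.178 CPM or less. The part of these markers in the results was not tested.

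Mitosis genes were higher in the knockout more often than lower. Of the 46 genes, 20 were called higher (43.5%), 0 lower and 26 were not called, where 17.1% of all genes tested were called higher and 18.5% lower. At an unadjusted p under 0.05, 25 were higher and 1, Ncapg, was lower, beside 23.1% and 23.2% of all genes. DESeq2 called 22 higher and 0 lower, beside 18.7% and 19.6% of all genes. Limma on log2(TPM + 1) called 13 higher and 0 lower, beside 13.1% and 14.4%. The median log2 fold change of the 46 genes, knockout minus control, was 0.31, beside 0.02 over all genes tested. Each of the 3 knockouts lay above the controls in this respect, with medians of 0.32, 0.18 and 0.31 relative to the control mean in knockouts 1, 2 and 3. Summed over the 46 genes, levels were 5047, 4918 and 4818 CPM in the controls and 6489, 6066 and 6251 CPM in the knockouts, with no overlap between the groups.

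All 3 knockouts lay above all 3 controls for 23 of the genes, where this held for 24.8% of all genes tested. All 3 lay below for 2, Ncapg and Ndc80, against 26.5% of all genes. Without knockout 2 the counts were 33 above and 6 below, beside 39.4% and 40.0% of all genes. Without knockout 2, 32 of the 46 were called higher and 4 lower, but the shares among all genes also rose, to 34.6% and 35.0%. The genes called higher in every fit that left out 1 library numbered 10: Aurkb, Ccna2, Incenp, Kif20a, Mki67, Ncapd2, Plk1, Racgap1, Top2a and Ube2c. The other 10 called genes lost the call when at least 1 control was left out. Leaving out control 1, 2 or 3 left 12, 10 and 10 genes called higher, and leaving out knockout 1 or 3 left 14 and 13.

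**Figure D1:**
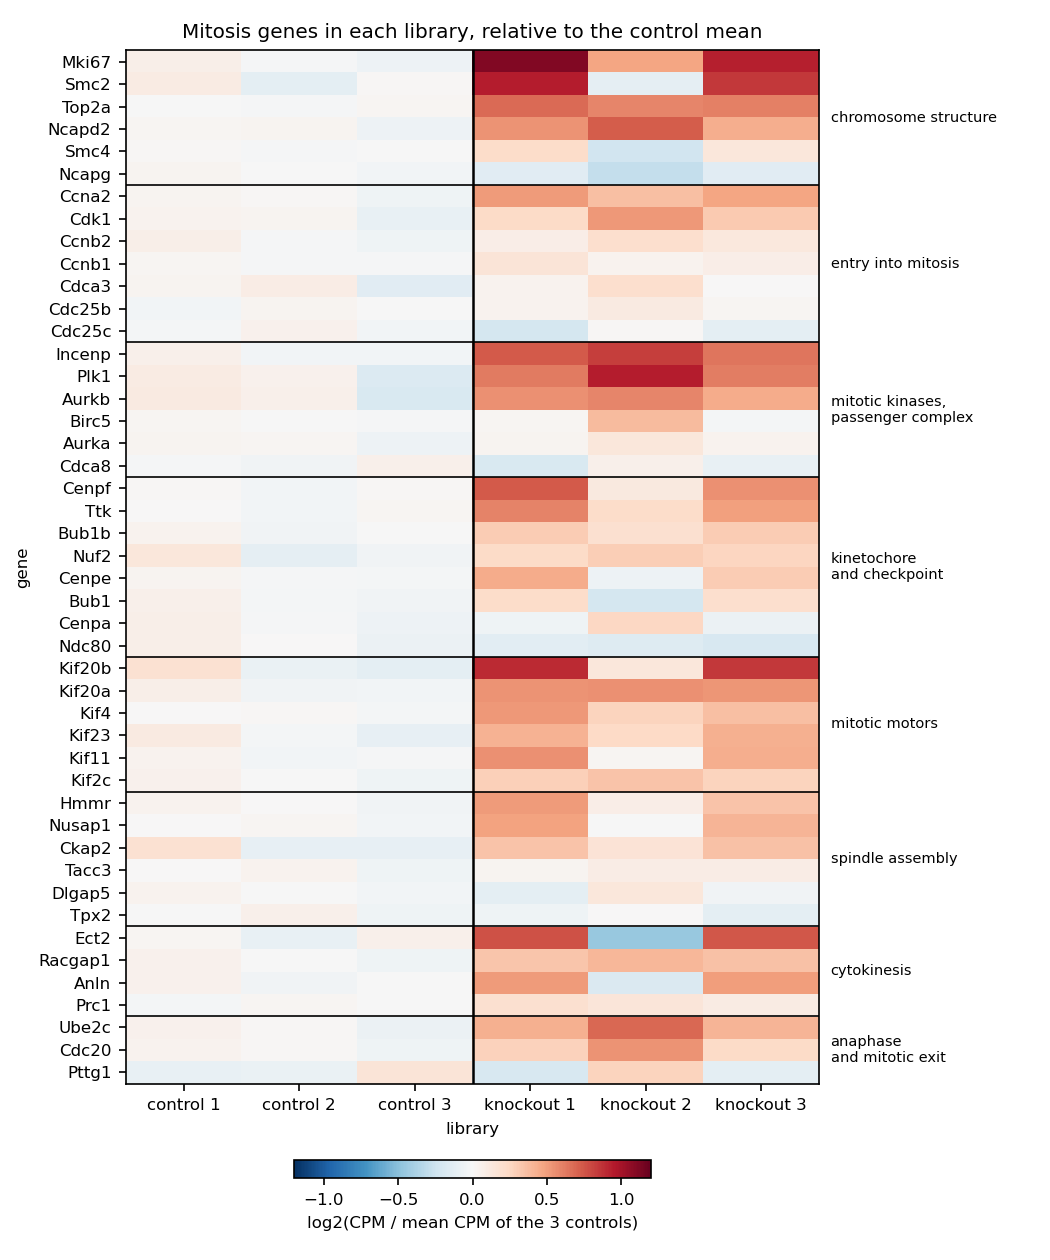
Level of each of the 46 mitosis genes in each library, as log2 of CPM over the mean CPM of the 3 controls, with genes in rows grouped by role and libraries in columns. Mki67, Top2a, Incenp, Plk1 and Kif20a are above the controls in all 3 knockouts, while Smc2, Ect2 and Anln are raised in knockouts 1 and 3 but not in knockout 2.

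Promoter sequences are shown because most of these genes share a short word at their start. RefSeq promoters of GRCm38.p6, which run from 250 bases before to 50 after each annotated start, were matched for 38 of the 46 genes (40 promoters); Tpx2, Dlgap5, Kif20a, Aurkb, Incenp, Cdc25c, Ccna2 and Smc4 had no entry. The CHR word TTTGAA, searched on both strands, was present in 29 of the 38 genes (76.3%), in 20.2% of all 27025 genes with a promoter and in 14.5% of the 9368 tested genes with one. Its variant TTCGAA was present in 4 of the 38 (10.5%) and in 1.80% of all genes. The CCAAT word was present in 29 of the 38 (76.3%) and in 41.1% of all genes, and 25 genes held both TTTGAA and CCAAT. In the 9368 tested genes, TTCGAA was present in 2.63% and CCAAT in 44.4%. The words are not particular to the 46 genes. Among 122 genes of the other pathway lists given below, 36.9% held TTTGAA, 7.38% TTCGAA and 57.4% CCAAT. A match describes letters only and is not a measured binding site.

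The whole promoters of 3 called genes from different steps of mitosis are given first, 5′ to 3′ on the gene's own strand, with every CHR word, variant CHR word and CCAAT word of either orientation in capitals. Plk1 lies at chr7:122159185-122159484 on the plus strand, Top2a at chr11:99024140-99024439 on the minus strand and Ube2c at chr2:164769679-164769978 on the plus strand. The run CCAATTGG in Ube2c holds CCAAT in both orientations.
Plk1: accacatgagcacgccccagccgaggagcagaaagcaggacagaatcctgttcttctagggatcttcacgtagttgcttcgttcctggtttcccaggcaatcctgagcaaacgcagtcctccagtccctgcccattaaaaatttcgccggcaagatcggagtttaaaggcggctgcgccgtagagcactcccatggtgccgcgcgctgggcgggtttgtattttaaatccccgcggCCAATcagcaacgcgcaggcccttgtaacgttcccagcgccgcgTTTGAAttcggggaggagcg
Top2a: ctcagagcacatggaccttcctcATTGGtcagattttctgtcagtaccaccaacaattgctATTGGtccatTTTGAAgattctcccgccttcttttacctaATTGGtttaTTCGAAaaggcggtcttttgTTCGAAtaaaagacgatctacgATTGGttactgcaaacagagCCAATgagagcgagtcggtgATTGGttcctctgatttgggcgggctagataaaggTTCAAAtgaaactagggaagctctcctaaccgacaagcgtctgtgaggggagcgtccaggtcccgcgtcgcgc
Ube2c: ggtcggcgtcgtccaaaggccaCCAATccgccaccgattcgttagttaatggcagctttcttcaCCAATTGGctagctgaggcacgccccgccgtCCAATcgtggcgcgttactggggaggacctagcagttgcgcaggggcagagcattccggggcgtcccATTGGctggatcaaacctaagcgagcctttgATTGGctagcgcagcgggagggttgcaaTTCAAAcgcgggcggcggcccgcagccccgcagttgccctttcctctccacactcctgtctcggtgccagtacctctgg

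The Plk1 promoter holds its CHR word downstream of the annotated start, with a CCAAT word upstream of it. The Top2a promoter holds several CCAAT words, TTTGAA in both orientations and 2 copies of TTCGAA. The Ube2c promoter holds its CHR word just upstream of the start. Shorter windows around the word allow called genes to be set beside genes that were not called. The first 7 genes below were called higher in the knockout and the last 4 were not, and capitals mark the CHR word.
Mki67: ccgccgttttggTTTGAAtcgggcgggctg
Ncapd2: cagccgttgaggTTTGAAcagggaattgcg
Cdk1: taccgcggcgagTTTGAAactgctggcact
Cenpf: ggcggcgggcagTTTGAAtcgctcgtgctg
Kif4: ctctgggatcaaTTTGAAacttggcggtta
Racgap1: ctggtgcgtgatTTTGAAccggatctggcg
Cdc20: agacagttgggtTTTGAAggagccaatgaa
Aurka: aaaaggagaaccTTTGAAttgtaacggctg
Ccnb2: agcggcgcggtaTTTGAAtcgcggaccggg
Cenpa: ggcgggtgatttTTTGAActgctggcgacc
Ncapg: ccgcgatagttgTTTGAAaactctggcgct

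These windows lie at chr7:135716460-135716489, minus strand (Mki67); chr6:125191692-125191721, minus strand (Ncapd2); chr10:69352910-69352939, minus strand (Cdk1); chr1:189688067-189688096, minus strand (Cenpf); chrX:100626072-100626101, plus strand (Kif4); chr15:99651634-99651663, minus strand (Racgap1); chr4:118437344-118437373, minus strand (Cdc20); chr2:172370521-172370550, minus strand (Aurka); chr9:70421533-70421562, minus strand (Ccnb2); chr5:30666890-30666919, plus strand (Cenpa); and chr5:45669883-45669912, plus strand (Ncapg). The windows were taken only from genes that hold the word. That called and uncalled genes here share its 6 letters follows from this choice. Of the 29 genes with TTTGAA, 15 were called higher and their median log2 fold change was 0.36; of the 9 without it, 1 was called higher and the median was 0.09. Without knockout 2 the counts were 22 of 29 and 5 of 9. Of all genes tested, 17.1% were called higher over all libraries and 34.6% without knockout 2. Genes without a promoter entry, among them the called Kif20a, Aurkb, Incenp and Ccna2, are not in these counts. These counts are descriptions and were not tested. Of 40 matches of TTTGAA in the promoters of mitosis genes, 21 lay in the 50 bases after the start and 8 in the 50 bases before it. That is 52.5 and 20 matches per 100 promoters, against 2.44 and 2.95 per 100 over all 32851 promoters. Ect2 and Prc1 each have overlapping promoters, so words shared by these were counted once per promoter.

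**Figure D2:**
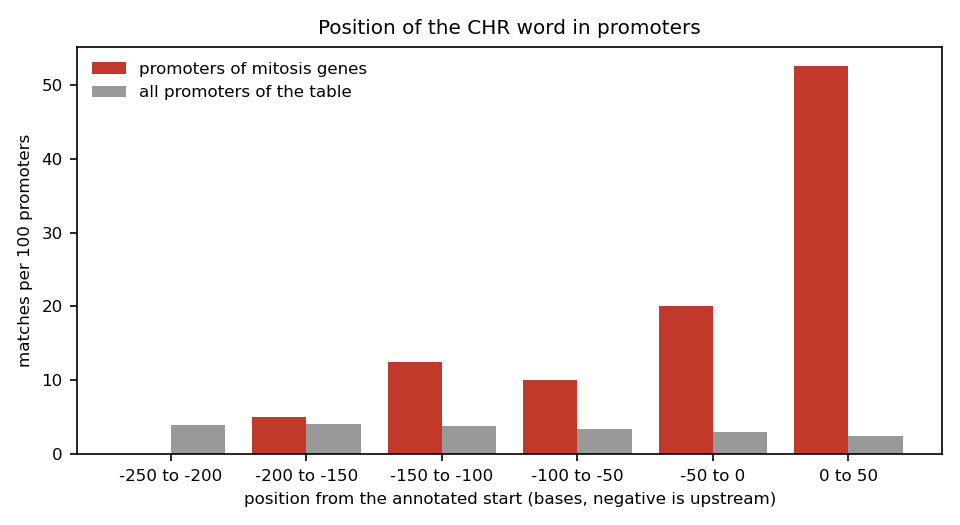
Matches of the CHR word per 100 promoters (vertical axis) in 50-base bins of distance from the annotated start (horizontal axis, in bases), for the 40 promoters of mitosis genes and all 32851 promoters. Matches in mitosis genes gather around the start, with 52.5 per 100 promoters in the first 50 bases after it.

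Counts for this role and every role below are to be read beside the shares of all genes, 17.1% called higher and 18.5% lower. Of the 6 chromosome structure genes, 3 were called higher and 0 lower, with a median log2 fold change of 0.60. Mki67 encodes Ki-67, which coats mitotic chromosomes and is used as a proliferation marker (chr7:135689784-135716450). Its levels were 208, 197 and 191 CPM in the controls and 428, 276 and 379 CPM in the knockouts. The knockouts all lay above the controls, with knockout 2 the lowest of them, and the mean rose 1.82-fold (log2 fold change 0.86, SE 0.155, adjusted p = 0.00536). Top2a encodes the topoisomerase that disentangles sister DNA (chr11:98992947-99024199), and measured 488, 484 and 498 CPM in the controls and 785, 733 and 744 CPM in the knockouts. The 3 knockouts were close together and well above the controls (log2 fold change 0.62, SE 0.0716, adjusted p = 0.000805).

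Of the 4 condensin genes, whose products compact chromosomes, 1 was called higher and 0 lower. Ncapd2, a subunit of condensin I (chr6:125168007-125192100), measured 155, 155 and 146 CPM in the controls and 220.5, 251 and 206 CPM in the knockouts, and rose with no overlap (log2 fold change 0.57, SE 0.0901, adjusted p = 0.00304). Ncapg, a subunit of the same complex (chr5:45669891-45700547), measured 72.1, 70.4 and 69.1 CPM in the controls and 64.1, 57.7 and 64.05 CPM in the knockouts. Its 3 knockouts all lay below the controls by a small margin, and the difference missed the threshold (log2 fold change -0.19, SE 0.0772, adjusted p = 0.0985; 95% interval -0.37 to -0.01). The span of Ncapg shares 3367 bases with Lcorl. Smc2, an ATPase subunit of both condensins, measured 84.7, 73.2 and 79.9 CPM in the controls and 152, 73.4 and 143 CPM in the knockouts. Knockouts 1 and 3 were far above the controls and knockout 2 was inside their range, and Smc2 was not called (log2 fold change 0.63, SE 0.254, adjusted p = 0.0922), although it was without knockout 2 (0.90, adjusted p = 1.11e-13). Its partner ATPase Smc4 had a log2 fold change of 0.06 (95% interval -0.22 to 0.33).

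Among the 7 genes of entry into mitosis, 2 were called higher (28.6%, against 17.1% of all genes) and 0 lower. The median log2 fold change was 0.09. Ccna2 encodes cyclin A2, which acts from S phase into early mitosis (chr3:36564865-36573038), and measured 143, 142 and 136 CPM in the controls and 199, 179.6 and 194 CPM in the knockouts. All 3 knockouts lay above the controls (log2 fold change 0.45, SE 0.0729, adjusted p = 0.00329). Its span shares 863 bases with Exosc9. For 8 of the 46 genes the annotated span shares bases with another gene of the table, and reads of such pairs cannot be told apart where no strand is recorded. Cdk1, the catalytic partner of the mitotic cyclins (chr10:69335146-69352912), measured 146, 146 and 134 CPM in the controls and 167, 204 and 177 CPM in the knockouts. Knockout 2 was the highest library and no knockout fell within the control range (log2 fold change 0.36, SE 0.0944, adjusted p = 0.0228).

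The B-type cyclins, which activate CDK1 for entry into mitosis, were not called. Ccnb1 measured 118, 115 and 115 CPM in the controls and 129, 119.7 and 123 CPM in the knockouts. The knockouts lay above the controls by a margin too small for a call (log2 fold change 0.09, SE 0.0685, adjusted p = 0.334; 95% interval -0.07 to 0.25). Ccnb2 measured 67.9, 63.9 and 62.3 CPM in the controls and 68.3, 74.6 and 70.6 CPM in the knockouts, again without a call (log2 fold change 0.14, SE 0.0769, adjusted p = 0.202; 95% interval -0.04 to 0.32). Cdc25c, a phosphatase that removes inhibitory phosphates from CDK1, was the lowest of the entry genes by fold change, at 37.7, 39.8 and 37.4 CPM in the controls and 33.02, 38.7 and 35.3 CPM in the knockouts. The groups overlapped (log2 fold change -0.10, SE 0.0894, adjusted p = 0.397). Cdc25b, a phosphatase of the same family, and Cdca3, an adaptor that triggers destruction of the kinase WEE1, had log2 fold changes of 0.06 and 0.09, with adjusted p = 0.533 and 0.509.

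Of the 6 genes for mitotic kinases and the chromosomal passenger complex, 3 were called higher and 0 lower, with a median log2 fold change of 0.33. Plk1, the Polo-like kinase needed for centrosome maturation, mitotic entry and cytokinesis (chr7:122159435-122169884), measured 80.7, 77.7 and 67.02 CPM in the controls and 115, 145 and 115 CPM in the knockouts. The knockouts lay clear of the controls and the mean was 1.66-fold higher (log2 fold change 0.73, SE 0.121, adjusted p = 0.00378). The passenger complex corrects faulty kinetochore attachments and consists of Aurora B, INCENP, survivin and borealin. Incenp, the scaffold that binds and activates the kinase (chr19:9872295-9899489), measured 141, 132 and 132 CPM in the controls and 224, 240.1 and 211 CPM in the knockouts, with no overlap (log2 fold change 0.74, SE 0.0779, adjusted p = 0.000596). Aurkb, the kinase itself (chr11:69045624-69051664), measured 53.5, 51.6 and 43.5 CPM in the controls and 72.3, 74.6 and 67.4 CPM in the knockouts (log2 fold change 0.53, SE 0.1, adjusted p = 0.00666).

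The other 2 genes of the complex did not pass the test. Birc5 (survivin) measured 125, 122 and 122 CPM in the controls and 125, 159.8 and 122 CPM in the knockouts. Knockout 2 was well above the controls, knockout 1 was level with the highest of them and knockout 3 was just below their range (log2 fold change 0.14, SE 0.113, adjusted p = 0.375). Cdca8 (borealin) measured 102, 100.1 and 108 CPM in the controls and 91.2, 108 and 96.98 CPM in the knockouts. The groups overlapped (log2 fold change -0.07, SE 0.0862, adjusted p = 0.58), and without knockout 2 Cdca8 was called lower (-0.13, adjusted p = 0.0219). Aurka, the spindle pole Aurora kinase, measured 96.3, 95.1 and 90.1 CPM in the controls and 96.2, 103 and 96.9 CPM in the knockouts. Its knockouts overlapped the controls (log2 fold change 0.07, SE 0.0722, adjusted p = 0.451; 95% interval -0.09 to 0.24), and its span shares 242 bases with Cstf1.

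Of the 8 kinetochore and checkpoint genes, 4 were called higher and 0 lower, and the median log2 fold change was 0.25. Limma on log2(TPM + 1) called 0 of the 8. Bub1b encodes BUBR1, a subunit of the mitotic checkpoint complex that holds the anaphase-promoting complex inactive, and measured 121, 114 and 117 CPM in the controls and 145, 134 and 145 CPM in the knockouts. Each knockout was above each control (log2 fold change 0.27, SE 0.0711, adjusted p = 0.0234). Ttk encodes MPS1, the kinase at the head of the checkpoint, and measured 29.8, 29.01 and 30.1 CPM in the controls and 44.9, 34.5 and 41.7 CPM in the knockouts, with the smallest rise in knockout 2 (log2 fold change 0.45, SE 0.111, adjusted p = 0.0193). Cenpf, a large protein of the outer kinetochore, measured 75.3, 72.6 and 75.2 CPM in the controls and 124, 80.7 and 108 CPM in the knockouts. Knockout 2 was closer to the controls than the other knockouts were (log2 fold change 0.49, SE 0.149, adjusted p = 0.0404).

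None of these 3 calls held in a fit without 1 of the controls. Nuf2 and Ndc80 encode partners in the NDC80 complex, which grips the microtubule. Nuf2 was called higher at 0.26 (adjusted p = 0.0472), near the threshold. Ndc80 measured 45.1, 43.1 and 40.96 CPM in the controls and 39.3, 38.6 and 37.7 CPM in the knockouts. All 3 knockouts were below all 3 controls, and the difference was not called (log2 fold change -0.16, SE 0.0778, adjusted p = 0.149; 95% interval -0.34 to 0.02). Bub1, a checkpoint kinase, measured 74.5, 70.3 and 69.5 CPM in the controls and 83.1, 61.5 and 81.98 CPM in the knockouts, with knockouts 1 and 3 above the controls and knockout 2 below them (log2 fold change 0.08, SE 0.124, adjusted p = 0.639). Cenpa, the histone H3 variant that marks centromeres, measured 44.4, 41.9 and 40.4 CPM in the controls and 40.9, 50.2 and 40.3 CPM in the knockouts. Only knockout 2 was above the controls (log2 fold change 0.05, SE 0.108, adjusted p = 0.733). Cenpe, a kinetochore motor, had a log2 fold change of 0.24 (adjusted p = 0.183).

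Of the 6 motor genes, 5 were called higher and 0 lower, with a median log2 fold change of 0.37. Without control 2 or control 3, Kif20a was the 1 motor gene still called, and limma on log2(TPM + 1) called 2. Kif20a, a kinesin of the central spindle needed for cytokinesis (chr18:34624624-34633277), measured 147, 136 and 136 CPM in the controls and 203, 204 and 201 CPM in the knockouts. Its 3 knockouts were nearly equal and all above the controls (log2 fold change 0.54, SE 0.0677, adjusted p = 0.00116). The annotated span of Kif20a shares 4930 bases with Cdc23, an anaphase-promoting complex gene that was also called higher (log2 fold change 0.38, adjusted p = 0.0236). Kif4, a chromosome-bound kinesin that works with condensin, measured 66.5, 66.9 and 65.3 CPM in the controls and 94.9, 79.9 and 84.8 CPM in the knockouts (log2 fold change 0.39, SE 0.0853, adjusted p = 0.0117). Kif2c, a microtubule depolymerase at centromeres, measured 70.95, 68.6 and 66.4 CPM in the controls and 83.7, 87.1 and 82.8 CPM in the knockouts (log2 fold change 0.30, SE 0.0705, adjusted p = 0.0148). Neither gene's groups overlapped.

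Kif20b and Kif23, motors of late mitosis and cytokinesis, were called at 0.67 and 0.36 (adjusted p = 0.0415 and 0.02), but the groups overlapped for Kif20b, whose knockout 2 lay inside the control range. Kif11, the motor that pushes spindle poles apart, was not called (log2 fold change 0.35, SE 0.135, adjusted p = 0.0812). Of the 6 spindle assembly genes 0 were called, with 3 at an unadjusted p under 0.05 and 1 called by DESeq2, and the median log2 fold change was 0.18. Hmmr, which binds the spindle and TPX2, measured 56.4, 54.9 and 53.1 CPM in the controls and 78.2, 58.1 and 69.4 CPM in the knockouts. The knockouts were above the controls but spread widely (log2 fold change 0.32, SE 0.116, adjusted p = 0.0666).

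Nusap1, which bundles spindle microtubules, measured 56.7, 57.4 and 54.9 CPM in the controls and 78.9, 56.2 and 74.8 CPM in the knockouts. Knockout 2 lay inside the control range (log2 fold change 0.31, SE 0.131, adjusted p = 0.103), and the span of Nusap1 shares 208 bases with Oip5. Ckap2, a microtubule-associated protein, measured 28.9, 23.8 and 23.8 CPM in the controls and 32.2, 28.6 and 32.6 CPM in the knockouts (log2 fold change 0.29, SE 0.11, adjusted p = 0.0789). Tpx2, which activates Aurora A on the spindle, measured 321, 335 and 310.2 CPM in the controls and 311, 324 and 296 CPM in the knockouts. The groups overlapped (log2 fold change -0.05, SE 0.0725, adjusted p = 0.596; 95% interval -0.22 to 0.12). Tacc3, which stabilises kinetochore fibres, and Dlgap5, which binds spindle microtubules, had log2 fold changes of 0.07 and -0.0032 (adjusted p = 0.455 and 0.983).

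Of the 4 cytokinesis genes 1 was called higher (25%, against 17.1% of all genes) and 0 lower. The median log2 fold change was 0.34. Racgap1, a subunit of centralspindlin, which organises the midzone and recruits ECT2 (chr15:99620496-99651656), measured 206, 198 and 193 CPM in the controls and 250.2, 262 and 254 CPM in the knockouts, without overlap (log2 fold change 0.36, SE 0.0669, adjusted p = 0.00573). Prc1, which bundles antiparallel midzone microtubules, measured 134, 139 and 136 CPM in the controls and 156, 151 and 146 CPM in the knockouts. The knockouts were all above the controls but not by enough to pass (log2 fold change 0.15, SE 0.0666, adjusted p = 0.121), and its span shares 21669 bases with Rccd1. Anln (anillin), a scaffold of the contractile ring, measured 155, 146 and 149.7 CPM in the controls and 214, 133 and 213 CPM in the knockouts, with knockouts 1 and 3 above and knockout 2 below the controls (log2 fold change 0.31, SE 0.176, adjusted p = 0.204). Its span shares 653 bases with 9530077C05Rik. Ect2, the exchange factor that activates RhoA for furrowing, measured 39.9, 36.9 and 40.8 CPM in the controls and 66.6, 28.6 and 65.98 CPM in the knockouts. It showed the same split in a wider form and was not called (log2 fold change 0.45, SE 0.294, adjusted p = 0.266).

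Of the 3 genes of anaphase and mitotic exit, 2 were called higher and 0 lower, and the median log2 fold change was 0.36. Ube2c, the ubiquitin-conjugating enzyme that works with the anaphase-promoting complex (chr2:164769929-164772902), measured 169, 166 and 156 CPM in the controls and 221, 264 and 217 CPM in the knockouts. The groups did not overlap and knockout 2 was the highest (log2 fold change 0.52, SE 0.0959, adjusted p = 0.00612). Cdc20, the activator of that complex in early mitosis (chr4:118432901-118437343), measured 133, 129.9 and 124 CPM in the controls and 157, 187 and 151 CPM in the knockouts (log2 fold change 0.36, SE 0.0973, adjusted p = 0.0272). The span of Cdc20 shares 53 bases with Elovl1, and its call did not hold when any 1 control was left out. Pttg1 (securin), the inhibitor of separase that the complex destroys, measured 31.1, 31.1 and 36.7 CPM in the controls and 28.8, 39.6 and 30.4 CPM in the knockouts. The groups overlapped and the estimate was near 0 (log2 fold change -0.0026, SE 0.143, adjusted p = 0.993; 95% interval -0.34 to 0.33).

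**Figure D3:**
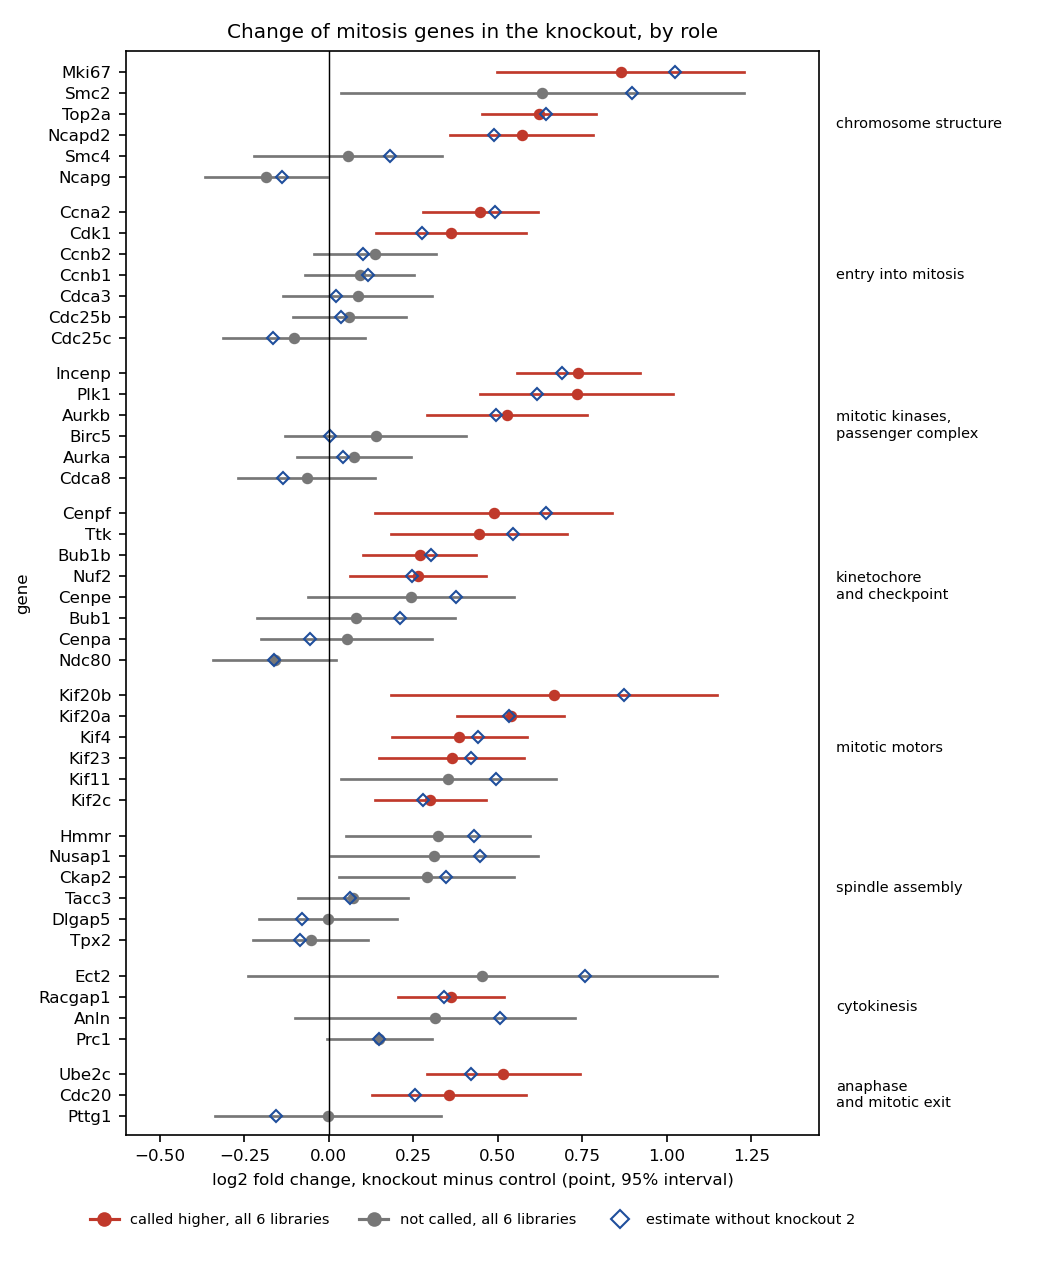
Log2 fold change of each mitosis gene, knockout minus control (horizontal axis), with the edgeR estimate over all 6 libraries and its 95% interval, coloured by call, and the estimate without knockout 2 as an open diamond. The 20 called genes are all higher, and open diamonds move farthest for Ect2, Smc2 and Kif20b.

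Levels per transcript length, as TPM in the controls, ordered the genes differently from CPM. Ube2c was the most abundant at 325 ± 13.1 TPM (SD, n = 3), followed by Birc5 at 207 ± 5.08, Tpx2 at 148 ± 3.32, Top2a at 133 ± 4.48 and Cdc20 at 113 ± 3.73 TPM. The lowest were Kif20b at 7.54 ± 0.905, Cenpf at 9.68 ± 0.371 and Ect2 at 13.9 ± 0.999 TPM. Genes at both ends of this order were among those called, and Birc5 and Tpx2, near its top, were not.

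Knockout 2 differed from knockouts 1 and 3 in a way that went with transcript length and base composition. It was below both in 21 of the 46 genes, above both in 23 and between them in 2. Genes in which it was below had a median longest transcript of 4086 bases and 42.9% GC, and those in which it was above had 3089 bases and 49.3% GC. On the log2 CPM scale, knockout 2 was lower than the mean of the other knockouts by 1.21 for Ect2, 1.01 for Smc2 and 0.74 for Kif20b, and higher by 0.42 for Pttg1, 0.37 for Birc5 and 0.33 for Plk1. Across the 46 genes this difference correlated with GC content at r = 0.65 (rho = 0.72) and with log2 length at r = -0.55 (rho = -0.55). Over 11376 tested genes the values were 0.45 (rho = 0.49) and -0.56 (rho = -0.60). The fold change between the groups also went with length, and more so without knockout 2. Its correlation with log2 length over the 46 genes was r = 0.30 in all libraries and 0.45 without knockout 2. Over the 11376 genes it was 0.12 and 0.24. With length and GC trends removed, r with log2 length was -0.01 both for the 46 genes and for all of them. The trends were fitted over all genes, so a value near 0 over all genes is built into that fit. The fold change of the 46 genes correlated with GC content at r = 0.18 in all libraries and 0.28 with the trends removed. Genes of 1 library are not independent, so these are descriptions.

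**Figure D4:**
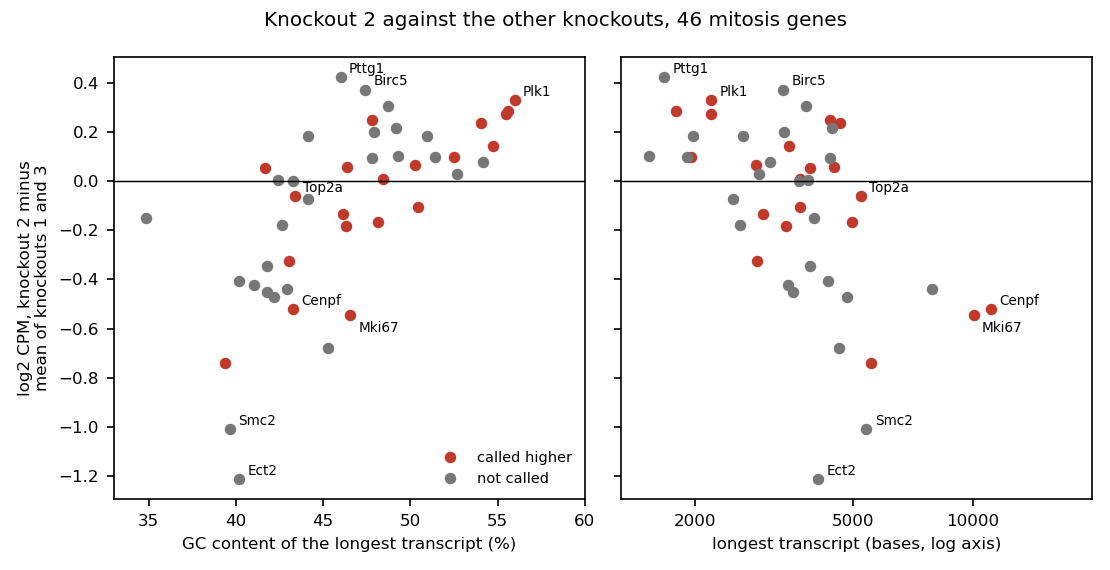
Difference of knockout 2 from the mean of knockouts 1 and 3 in log2 CPM (vertical axis) against GC content (left, in percent) and length (right, in bases, log axis) of the longest transcript, 1 point per mitosis gene. Ect2 at -1.21 and Smc2 at -1.01 are lowest, and GC-rich Plk1 is at 0.33.

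With length and GC trends removed library by library, 31 of the 46 genes were called higher and 0 lower, beside 28.5% and 23.4% of the 11421 genes in that fit, and the median log2 fold change was 0.34. All 20 genes called before were among the 31. The 11 added genes were Anln, Aurka, Ccnb1, Ccnb2, Cdca3, Ckap2, Hmmr, Kif11, Nusap1, Prc1 and Smc2. In that fit Mki67, one of the longest transcripts, had a log2 fold change of 0.65 (adjusted p = 6.71e-05) and Cenpf of 0.27 (adjusted p = 0.00408), less than in the fit without the correction. Plk1 was at 0.82 (adjusted p = 8.25e-05) and Ube2c at 0.61 (adjusted p = 5.95e-05), more than without it. The fit that left out knockout 2 had 4 genes called lower, Ncapg, Ndc80, Cdc25c and Cdca8, none of which was called with the trends removed.

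Other genes of the pathway were taken as 6 lists of 146 tested genes that hold none of the 46. Of these, 36 were called higher (24.7%) and 8 lower (5.48%), beside 17.1% and 18.5% of all genes. Their median log2 fold change was 0.20. Without knockout 2, 89 were higher and 28 lower, beside 34.6% and 35.0% of all genes. The counts of each list below are to be read beside the same shares of all genes. Among 28 other motors, spindle and cytokinesis genes, 11 were called higher (39.3%) and 0 lower (median 0.34), and 23 and 2 without knockout 2. Fam83d, which recruits casein kinase to the spindle, had a log2 fold change of 0.57 (adjusted p = 0.00184), and Pcnt, the scaffold of the pericentriolar material, of 0.64 (adjusted p = 0.00193). Of 17 other anaphase-promoting complex genes, 4 were called higher (23.5%) and 0 lower (median 0.10), and 9 and 3 without knockout 2. The subunit Anapc2 was at 0.50 (adjusted p = 0.0174) and the inhibitor Fbxo5 (EMI1) at 0.39 (adjusted p = 0.0163). Of 18 cohesin, separase and other condensin genes, 2 were called higher (11.1%, against 17.1% of all genes) and 0 lower (median 0.22). Without knockout 2 this list had 15 higher and 0 lower (median 0.42), and with trends removed 10 and 1. Separase, Espl1, which cuts cohesin at anaphase, was at 0.63 (adjusted p = 0.00145), while its inhibitor Pttg1 was near 0 as given above. The cohesin subunit Smc3 was at 0.47 (adjusted p = 0.0271).

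Of 39 other kinetochore, centromere and checkpoint genes, 7 were called higher and 3 lower (median 0.08), and 18 and 12 without knockout 2. The count over all libraries was near the share of all genes called higher. Mis18a, a subunit of the complex that prepares centromeres for CENP-A, measured 16.7, 15.6 and 15.4 CPM in the controls and 29.4, 26.8 and 27.5 CPM in the knockouts and rose (log2 fold change 0.82, SE 0.0869, adjusted p = 0.000614). Oip5 (Mis18b), its partner in the same complex, measured 19.2, 23.6 and 20.1 CPM in the controls and 13.7, 14.2 and 14.6 CPM in the knockouts and fell (log2 fold change -0.57, SE 0.107, adjusted p = 0.00628). The spindle-attachment subunit Ska2 rose by 0.53 (adjusted p = 0.00322), and Zwilch, of the checkpoint complex that recruits dynein, had a log2 fold change of -0.38 (adjusted p = 0.0156).

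Of 22 other regulators of mitotic entry and mitotic transcription, 5 were called higher (22.7%) and 1 lower (median 0.16). Without knockout 2 the counts were 12 and 4. Over all genes, 17.1% were called higher and 18.5% lower, and 34.6% and 35.0% without knockout 2. Ccnf, cyclin F, was at 0.72 (adjusted p = 0.00124) and Gtse1, a microtubule-associated regulator of p53, at 0.66 (adjusted p = 0.000711). Bora, the cofactor through which Aurora A activates PLK1, fell, with a log2 fold change of -0.48 (adjusted p = 0.00534). Neither transcription factor known for driving mitotic genes was called. Foxm1 measured 153, 161 and 150.01 CPM in the controls and 163, 171 and 159.9 CPM in the knockouts, with knockout 3 inside the control range (log2 fold change 0.09, SE 0.0692, adjusted p = 0.346; 95% interval -0.07 to 0.25). Mybl2, which encodes B-MYB, measured 94.04, 95.2 and 91.8 CPM in the controls and 78.8, 97.3 and 75.5 CPM in the knockouts, with knockouts 1 and 3 below the controls and knockout 2 above them (log2 fold change -0.16, SE 0.107, adjusted p = 0.282). Without knockout 2 it was called lower (-0.28, adjusted p = 2.55e-05).

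Of 22 CDK inhibitor and G1 control genes, 7 were called higher (31.8%) and 4 lower (18.2%), with a median of 0.17. Over all genes the shares were 17.1% and 18.5%, so the share called lower was near that of all genes. Without knockout 2 the counts were 12 and 7, beside 34.6% and 35.0% of all genes. Cdkn1a encodes p21, an inhibitor of cyclin-dependent kinases induced by p53, and measured 62.3, 66.2 and 60.5 CPM in the controls and 34.99, 42.1 and 33.3 CPM in the knockouts. It fell with no overlap (log2 fold change -0.78, SE 0.107, adjusted p = 0.00176). Other inhibitors rose. Cdkn1c (p57) measured 3.09, 2.49 and 2.73 CPM in the controls and 8.97, 8.84 and 8.26 CPM in the knockouts (log2 fold change 1.65, SE 0.129, adjusted p = 0.000171). Cdkn2c (p18) measured 14.98, 12.9 and 12.6 CPM in the controls and 34.2, 31.7 and 31.4 CPM in the knockouts (log2 fold change 1.26, SE 0.101, adjusted p = 0.000188). Rb1, the retinoblastoma protein gene, measured 12.3, 11.4 and 10.2 CPM in the controls and 7.90, 4.84 and 6.86 CPM in the knockouts and fell (log2 fold change -0.79, SE 0.183, adjusted p = 0.0147). Cyclin D2, Ccnd2, measured 160.2, 175 and 181 CPM in the controls and 102, 85.1 and 99.6 CPM in the knockouts and fell (log2 fold change -0.85, SE 0.0959, adjusted p = 0.000809). Among the pathway genes named, the calls of Anapc2, Fbxo5, Smc3, Zwilch and Rb1 were lost in some fits without 1 library, while Cdkn1a, Cdkn1c, Cdkn2c, Ccnd2, Mis18a, Oip5 and Espl1 were called in all 6.

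DNA replication and S phase genes are given for comparison. Of 44 tested, 12 were called higher (27.3%) and 5 lower (11.4%), beside 17.1% and 18.5% of all genes. Their median log2 fold change was 0.05. Without knockout 2, 14 were higher and 13 lower, beside 34.6% and 35.0% of all genes. The 46 mitosis genes had 20 and 0, and 32 and 4 without knockout 2. These counts stand side by side and the difference between the lists was not tested.

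**Figure D5:**
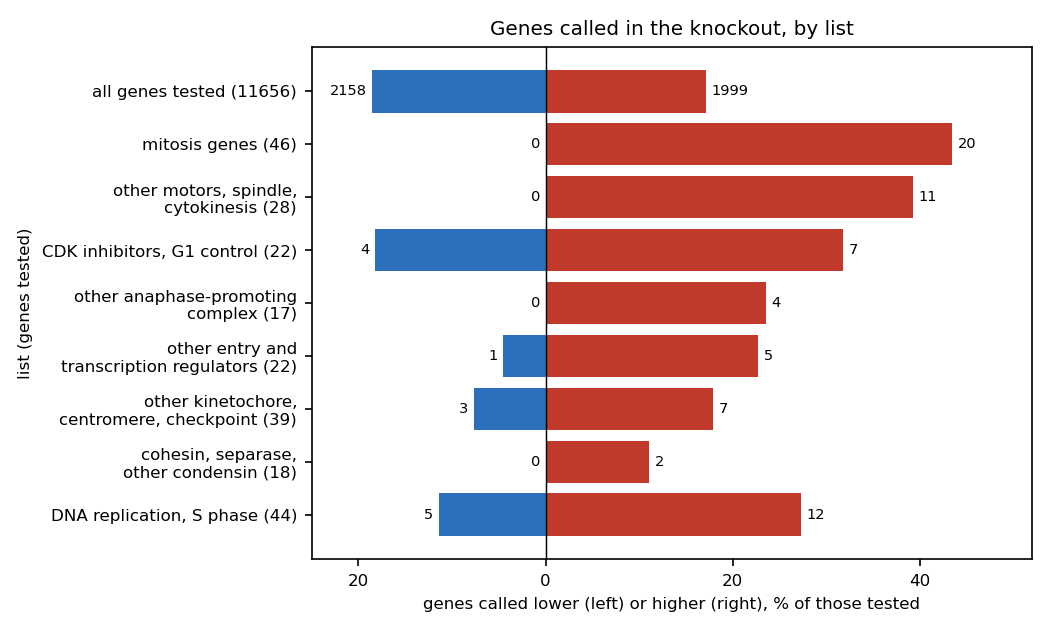
Share of genes called higher (right of 0) and lower (left of 0) in the knockout, in percent of the genes tested in each list, with the number of genes at each bar and the number tested in brackets. The mitosis genes have 20 of 46 higher and 0 lower, beside 12 and 5 of 44 for DNA replication and S phase. Over all genes tested, 17.1% are higher and 18.5% lower.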

How the data were processed

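The authors deposited 1 table with read counts, FPKM and TPM for each library. Its read counts are expected counts, since 88.9% of the deposited values are whole, and the deposited TPM were scaled by the authors for transcript length and depth. FPKM was not used. The submitters' processing notes name HISAT2, StringTie, SAMtools and GRCm38.p6; which program made the values is not given in sources used here. Per the labels' protocols, libraries were made from total RNA (NEBNext Ultra RNA kit), with no strand setting stated.

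Expected counts were rounded and filtered with edgeR's filterByExpr (minimum count 10, total 15, group size 3). They were tested with edgeR 4.0.16 in R 4.3.3 (TMM, robust quasi-likelihood, two-sided, Benjamini-Hochberg over all 11656 genes tested). SE and 95% intervals belong to log2 fold changes, and no group has more than n = 3. Alternatives were DESeq2 1.42.0, limma 3.58.1 on log2(TPM + 1), other scalings and filters, a replicate block, each library left out, and offsets that remove length and GC trends (loess, span 0.3, longest GENCODE M21 transcript, known for 98% of genes tested). The edgeR, DESeq2 and limma tests were run on simulated counts that held no length or GC trend and no divergent library. That check does not cover the trend offsets, the replicate block or the fits without 1 library. Coordinates, 1-based, are from RefSeq on GRCm38.p6, where all 46 genes matched by identifier with the same symbol.

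The genes and lists were chosen with earlier results of these data known. Values in every library are given for the 3 genes of each role with the smallest p, the one with the most negative change, and 12 set by name. Smc2, Ect2 and genes named for a split or an overlap were added after their values were seen, as were the counts of non-overlapping genes without knockout 2. From each pathway list the rule names up to 2 called genes a direction with the smallest p, besides Foxm1, Mybl2, Cdkn1a and Rb1.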

Additional observations from a re-analysis of the deposited data

How the results depend on the processing

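Counts of mitosis genes called higher moved from 20 to 31 with length and GC trends removed, and to 32 when this went with the replicate block. They were 13 by limma on log2(TPM + 1) and on log2(TPM + 0.1), and 10 without a filter on TPM. Leaving out 1 library gave 10 to 32 called higher, 0 to 4 called lower and 2406 to 8208 of all genes called. RLE or upper-quartile scaling, no count filter, a minimum mean of 10 CPM and DESeq2 gave 19 to 22. Over all these fits the median log2 fold change of the 46 genes ran from 0.25 to 0.34. Deviations from the group mean correlated at 0.161, 0.261 and 0.0401 between controls and knockouts of the same number. Not every library correlated best with its own number. Knockouts 1 and 3 deviated alike (0.342), both opposite to knockout 2 (-0.852 and -0.784). These values therefore cannot decide whether replicate numbers pair the libraries. The replicate block gave 20 genes called higher and 0 lower (19 of them the same, without Nuf2 and with Smc2) and 4337 of all genes called; of the 18 cohesin, separase and other condensin genes it called 6 higher, against 2 without it. Ncoa1 passed the test with trends removed (-0.43, adjusted p = 0.0071), also with the block (-0.43, adjusted p = 0.0104). Estimates near 0 changed sign. With trends removed, without and with the block, log2 fold changes were 0.0135 and 0.0111 for Cdc25c, 0.0074 and 0.0034 for Cdca8, 0.0184 and 0.0105 for Dlgap5, and 0.174 and 0.173 for Pttg1. By limma on log2(TPM + 1), on log2(TPM + 0.1) and with no filter, Dlgap5 was at 0.0574, 0.0586 and 0.0574, and Pttg1 at 0.0415, 0.0419 and 0.0415. Leaving out 1 library put Cenpa at -0.0568 to 0.107, Dlgap5 at -0.0787 to 0.0505, Pttg1 at -0.156 to 0.0858 and Smc4 at -0.0328 to 0.18. The cause of these moves was not tested. Of 782 values for single mitosis genes under alternatives, 650 kept direction and side of the threshold, many of them for genes not called in the main fit. Another 68 lost the call, 42 gained one and 22 changed sign. The genes called higher in every fit numbered 8: Aurkb, Incenp, Kif20a, Ncapd2, Plk1, Racgap1, Top2a and Ube2c. Mki67 and Ccna2 lost the call by limma on log2(TPM + 1) with no filter (adjusted p = 0.0593 and 0.0612).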
